A study of Mus musculus with 6 samples.

Results

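Enzymes that dispose of reactive aldehydes, ketones, quinones and epoxides were followed as a set of 10 genes, Adh5, Adh7, Aldh2, Akr1a1, Akr1b3, Akr1b8, Cbr1, Cbr3, Ephx1 and Ptgr1, out of 24940 genes in the expression table. The set was chosen by the rise of Adh7 in cells given RANKL and LE. The values of Adh7 are therefore a description here, and none of them was tested. The other 9 genes were put beside Adh7 for their function, but with earlier results of these data known. Their p-values are therefore not those of a list set in advance. The cells were bone marrow-derived macrophages (BMMs), which are osteoclast precursors grown from mouse marrow with M-CSF. All cultures received M-CSF at 30 ng/mL, and 3 conditions were compared: no RANKL (-R), RANKL at 100 ng/mL (+R), and RANKL at 100 ng/mL with LE at 10 µg/mL (R+LE), each for 3 days with 2 libraries. RANKL is the cytokine that turns these precursors into osteoclasts, and LE is a methanolic extract of the leaves of Abeliophyllum distichum, a mixture of compounds. The sample labels name C57BL/6 mice aged 6 to 8 weeks and cultures in 48-well plates, whereas the methods of the study name male ICR mice, so the strain is uncertain. The labels do not say that the 2 libraries of a condition came from separate cultures or animals, so the p-values measure the spread between these libraries, which may be technical.

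Reactive carbonyl compounds form when lipids are oxidised and also enter cells with food and drugs, and they bind to proteins and DNA. Cells remove them by oxidation to acids (aldehyde dehydrogenases), by reduction to alcohols (aldo-keto reductases and carbonyl reductases), by reduction of a double bond next to the carbonyl group (Ptgr1), or by opening an epoxide ring with water (Ephx1). Several genes of these families are known targets of Nrf2, the transcription factor that responds to electrophiles, and Nqo1 is its textbook target.

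The 10 genes lie at 7 places in the genome, and 3 pairs are neighbours of one family. On chromosome 3 of mm10, Adh7 at chr3:138217773-138232042 (plus strand, 9 exons) and Adh5 at chr3:138443093-138455499 (plus strand) stand at either end of the alcohol dehydrogenase cluster, with Adh1, Adh6a and Adh4 between them. On chromosome 6, Akr1b3 at chr6:34303930-34317489 (minus strand) and Akr1b8 at chr6:34354146-34368461 (plus strand) are followed by Akr1b10 and Akr1b7. On chromosome 16, Cbr1 at chr16:93607837-93610349 and Cbr3 at chr16:93683219-93690991 are both on the plus strand and both have 3 exons. The single genes are Aldh2 at chr5:121570316-121593824, Akr1a1 at chr4:116636510-116651674, Ptgr1 at chr4:58965590-58987078 and Ephx1 at chr1:180989556-181017569, all on the minus strand.

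Promoter sequences are shown for Adh7 and Adh5 and for Cbr1 and Cbr3, as neighbours of one family, and for Ptgr1, the member with the largest tested change. They are RefSeq windows on build GRCm38.p6, written 5′ to 3′ on the strand of the gene, from 250 bases before to 50 bases after the start. Adh7 is at chr3:138217523-138217822 (plus), Adh5 at chr3:138442843-138443142 (plus), Cbr1 at chr16:93607587-93607886 (plus), Cbr3 at chr16:93682969-93683268 (plus) and Ptgr1 at chr4:58987029-58987328 (minus). Capitals mark the match to the AP-1 site TGANTCA.
Adh7: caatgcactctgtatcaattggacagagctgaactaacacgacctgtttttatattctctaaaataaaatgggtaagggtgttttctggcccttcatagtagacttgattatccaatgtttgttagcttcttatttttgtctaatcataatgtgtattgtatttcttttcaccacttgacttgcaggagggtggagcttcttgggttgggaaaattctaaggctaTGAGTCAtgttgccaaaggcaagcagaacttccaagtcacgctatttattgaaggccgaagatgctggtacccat
Adh5: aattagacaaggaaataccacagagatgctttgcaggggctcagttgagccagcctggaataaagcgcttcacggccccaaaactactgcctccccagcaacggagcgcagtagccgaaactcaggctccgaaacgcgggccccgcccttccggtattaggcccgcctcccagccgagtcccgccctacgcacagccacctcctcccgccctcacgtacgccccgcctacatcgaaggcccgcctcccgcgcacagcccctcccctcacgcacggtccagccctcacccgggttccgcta
Cbr1: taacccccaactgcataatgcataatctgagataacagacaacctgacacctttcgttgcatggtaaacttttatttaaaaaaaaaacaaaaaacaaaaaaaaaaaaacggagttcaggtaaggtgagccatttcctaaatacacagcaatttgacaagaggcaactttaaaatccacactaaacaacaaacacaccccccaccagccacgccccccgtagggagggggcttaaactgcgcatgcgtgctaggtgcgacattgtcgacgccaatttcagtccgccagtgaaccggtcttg
Cbr3: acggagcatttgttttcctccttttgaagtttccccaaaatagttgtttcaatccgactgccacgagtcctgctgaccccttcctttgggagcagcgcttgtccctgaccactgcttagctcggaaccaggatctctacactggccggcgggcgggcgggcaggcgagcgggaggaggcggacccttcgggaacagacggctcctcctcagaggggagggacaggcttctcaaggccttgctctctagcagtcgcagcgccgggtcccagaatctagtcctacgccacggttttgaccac
Ptgr1: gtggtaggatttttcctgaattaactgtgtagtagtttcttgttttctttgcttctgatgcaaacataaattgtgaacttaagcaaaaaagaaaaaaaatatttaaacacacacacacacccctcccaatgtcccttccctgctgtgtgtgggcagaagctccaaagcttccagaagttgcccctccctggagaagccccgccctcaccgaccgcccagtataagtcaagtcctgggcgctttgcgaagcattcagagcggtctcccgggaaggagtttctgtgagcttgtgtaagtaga

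Promoter windows were at hand for 8 of the 10 members, in 9 windows, because Adh5 has a second start upstream. Both strands were searched for TGACNNNGC, the core of the antioxidant response element to which Nrf2 binds, and for TGANTCA, the site of AP-1 factors such as c-FOS; the letters of the motifs can overlap, so that 1 stretch may match both. The AP-1 letters were found in 1 of the 9 windows, that of Adh7, as TGAGTCA on the strand of the gene with its first base at position -25 from the start, against 7.8% of all 32851 windows. The antioxidant response core was found in 0 of the 9 windows, against 12.4% of all windows, and enhancers further away were not searched. Adh7 also had few CpG pairs, 3 in its 300 bases at 39.3% G and C, against a median of 7 CpG and 52.7% over all windows, of which 31.4% held 3 or fewer. The windows at the counted start of the other members held 5 (Ephx1) to 26 (Adh5) CpG pairs.

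Depth was alike in the 6 libraries, at 29391187 to 34846483 mapped reads, of which 74.2% to 80.7% lay on genes. All 10 members passed the filter of a mean of 0.5 RPKM (reads per kilobase of transcript per 1000000 mapped reads), but Adh7 did so only through R+LE, with a mean of 0.952 RPKM over 6 libraries and 0.14 RPKM over the 4 libraries without LE. All 10 members were lower in R+LE replicate 2 than in replicate 1, with a median ratio of 0.814. In both +R and -R, 8 of 10 were lower in replicate 2. Over all genes tested, the median log2(RPKM + 0.5) in replicates 1 and 2 was 3.079 and 2.986 in R+LE and 3.115 and 3.052 in +R. In -R it was 3.055 and 3.119, the other direction to most members. The 8 osteoclast markers, such as Ctsk and Acp5, were all called, higher with RANKL and lower again under LE. Their summed level was 43.2 to 44.8 RPKM in -R, 1866 to 2123 RPKM in +R and 329 to 380 RPKM in R+LE. Of the 6 macrophage markers, 5 were lower with RANKL by adjusted p, and 1, Mertk, was higher under LE. Lyz2, the most abundant, was measured at 5062 and 5571 RPKM in -R, 2448 and 1815 RPKM in +R, and 3191 and 2929 RPKM in R+LE, and the other 5 summed to 1327 to 1433 RPKM in -R, 791 to 901 RPKM in +R and 702 to 853 RPKM in R+LE. The 7 neutrophil markers summed to 17.3 and 15.6 RPKM in -R, 0.716 and 0.816 RPKM in +R, and 2.53 and 0.592 RPKM in R+LE. Most of the -R sum was S100a8 (10.55 and 10.53 RPKM) and S100a9 (5.94 and 4.51 RPKM), which were lower with RANKL, as several members were. Elane, near the floor, was at 0 in -R and at 0.071 and 0.143 RPKM in +R. The markers of lymphocytes, stromal cells, erythroid cells, mast cells and endothelium summed to at most 16.8 RPKM in any library. Below 1 RPKM everywhere were 5 of 7 neutrophil, 6 of 6 lymphocyte, 4 of 7 stromal, 5 of 5 erythroid, 4 of 4 mast cell and 3 of 4 endothelial markers. The part of these shifts in the member genes was not tested, and in RNA from whole cultures, fewer cells of a type and less RNA per cell cannot be told apart.

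**Figure D1:**
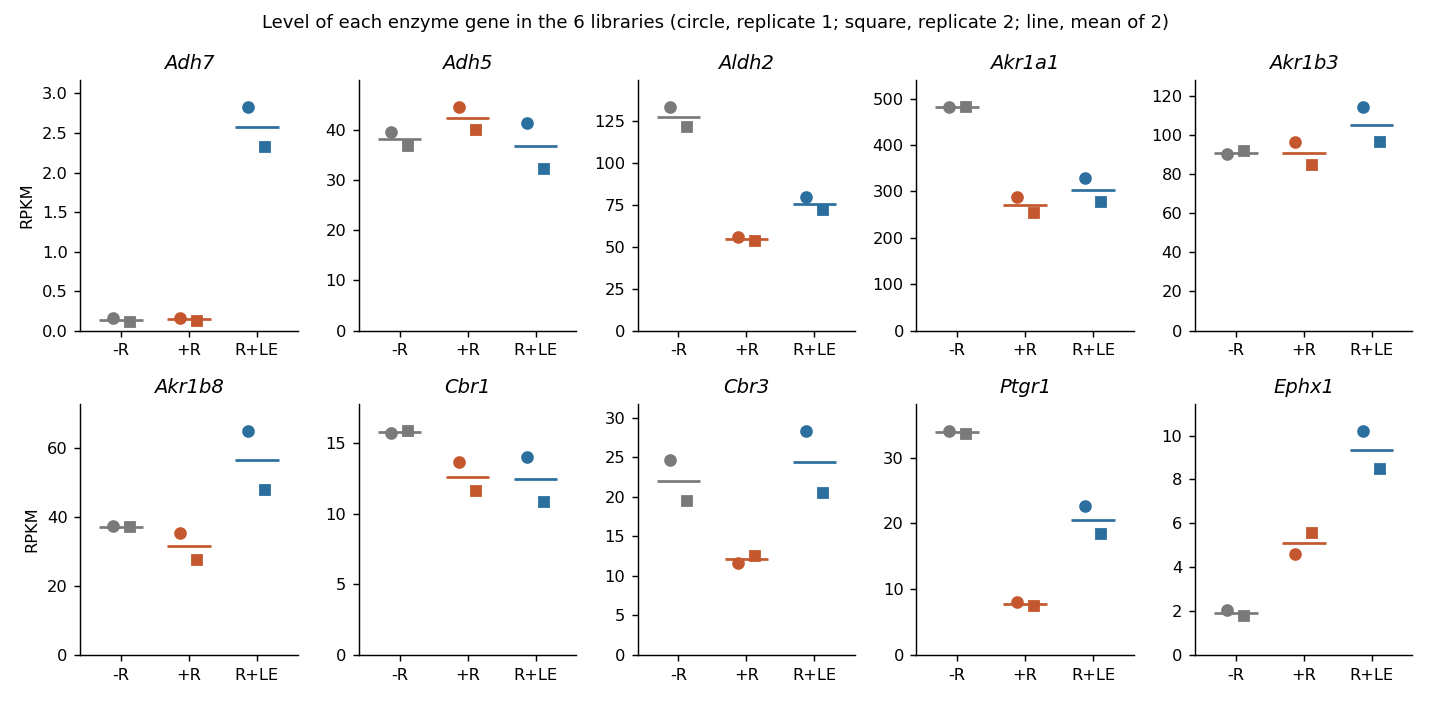
RPKM of the 10 enzyme genes (vertical axis, linear from 0, one scale per gene) in the 2 libraries of -R, +R and R+LE, with circles for replicate 1, squares for replicate 2 and a line at the mean. Adh7 lies between 0.111 and 0.165 RPKM in the 4 libraries without LE and at 2.83 and 2.32 RPKM in R+LE, while Ptgr1 and Aldh2 are highest in -R, lowest in +R and between in R+LE.

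Adh7 encodes the class IV alcohol dehydrogenase, which oxidises retinol and other alcohols and is best known from the lining of the upper digestive tract. It was measured at 0.165 and 0.111 RPKM in -R, 0.158 and 0.126 RPKM in +R, and 2.83 and 2.32 RPKM in R+LE. In reads, -R and +R each had 10 and 8, and R+LE had 185 and 146. Both R+LE libraries stood far above the other 4, which overlapped one another. The 95% Poisson intervals, which cover counting error only, ran from 0.0479 to 0.303 RPKM over the 4 low libraries, and were 2.44 to 3.27 and 1.96 to 2.73 RPKM in R+LE. The mean was 2.58 ± 0.365 RPKM (SD, n = 2) in R+LE, 18.1 times that of +R (0.142 ± 0.0226) and 18.7 times that of -R (0.138 ± 0.0382), with ratios of 14.7 to 22.5 between single R+LE and +R libraries. Even so, Adh7 was the lowest of the 10 members in all 3 conditions. The GENCODE model of the Adh7 transcript, at 3432 bases longer than the counted one of 2068 bases, shares 108 bases of exon with an antisense gene, 0610031O16Rik. Whether these bases lie in the counted transcript was not examined. Reads were counted on either strand, but that gene was listed with 0 reads in all 6 libraries.

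The closest relative of Adh7 in the set was far more abundant. Adh5, the class III enzyme that oxidises the formaldehyde adduct of glutathione and is present in most tissues, was measured at 39.5 and 36.8 RPKM in -R, 44.6 and 40.0 RPKM in +R, and 41.4 and 32.2 RPKM in R+LE. The groups overlapped between R+LE and each of the other conditions, and the log2 difference of R+LE from +R was -0.21 (95% interval -0.53 to 0.12, limma adjusted p = 0.493). Within a library, the ratio of Adh7 to Adh5 was 0.00418 and 0.00301 in -R, 0.00354 and 0.00315 in +R, but 0.0684 and 0.0719 in R+LE, so that Adh7 was far below Adh5 also where it was highest. Of the genes between them, Adh1 reached 0.083 RPKM at most, Adh4 was listed at 0 but for 0.025 RPKM in R+LE replicate 2, and Adh6a was listed at 0 in all 6 libraries. None of the other alcohol dehydrogenases passed the filter.

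The genes whose log2 level over the 6 libraries was most like that of Adh7, of 11594 compared, were Il18rap (Pearson r = 0.999), a subunit of the interleukin-18 receptor, Slc39a4 (0.996), a zinc importer, Nqo1 (0.994), which reduces quinones by 2 electrons, Bag2 (0.988), a co-chaperone, and Rras (0.982), a small GTPase. The r was above 0.95 for 20 genes. With 6 libraries in 3 conditions these values mostly state that a gene was high in both R+LE libraries, and they are a description. Nqo1 was the most abundant of the 3 nearest, at 3.26 and 3.87 RPKM in -R, 3.84 and 2.51 RPKM in +R, and 53.0 and 42.7 RPKM in R+LE. Among the members, Akr1b8 was nearest to Adh7 (r = 0.89, rank 96 of the 11594), followed by Ephx1 (0.804, rank 238), Akr1b3 (0.78, rank 283) and Cbr3 (0.588, rank 875). The +R and R+LE libraries of Akr1b3 overlapped. Ptgr1 stood at 0.172, and the other 4 members were below 0.

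The other 9 members were tested in a limma fit over 11595 genes, and a gene was called where its adjusted p was under 0.05 and it changed 2-fold or more on the log2(RPKM + 0.5) scale. With RANKL alone, 1 of the 9 was called higher (Ephx1), against 6.58% of all genes, and 2 were called lower (Ptgr1 and Aldh2), against 8.92%. By adjusted p alone, 1 of 9 rose, against 23.9% of all genes, and 4 of 9 fell, against 21.5%, with Akr1a1 and Cbr3 added. Under LE, in R+LE against +R, 1 of 9 was called higher (Ptgr1), against 1.46% of all genes, and 0 were called lower, against 1.78%. By adjusted p alone, 4 of 9 rose under LE (Ptgr1, Cbr3, Akr1b8 and Ephx1), against 5.19% of all genes, and 0 fell, against 6.86%. Since the set was built around this comparison, nothing about the set is read from these shares. The median log2 difference of the 9 was -0.32 for RANKL, against 0.05 over all genes tested, and 0.47 for LE, against -0.05.

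**Figure D2:**
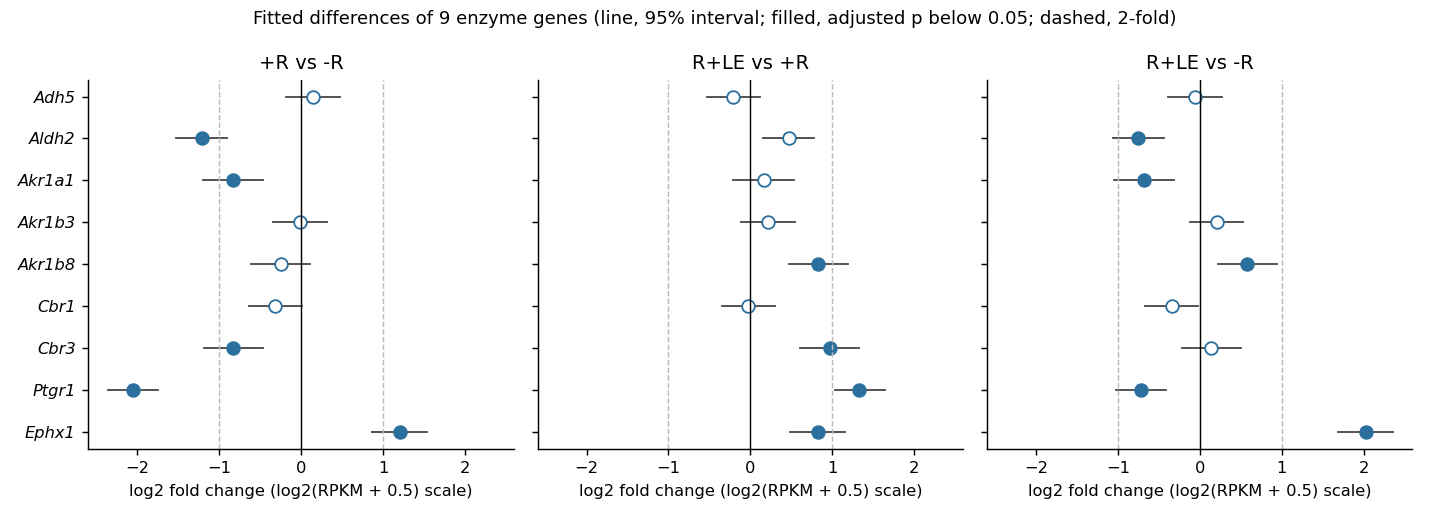
Fitted log2 fold change (horizontal axis, log2(RPKM + 0.5) scale) of the 9 members other than Adh7 in the 3 comparisons, with 95% intervals from limma, filled points at an adjusted p below 0.05 and dashed lines at a 2-fold change. Ptgr1 runs from -2.05 with RANKL to 1.33 under LE, while Ephx1 lies above 0 in all 3 panels.

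The reduction of the double bond in alkenals and prostaglandins is the work of Ptgr1 (prostaglandin reductase 1, also known as leukotriene B4 dehydrogenase), which takes part in the removal of 4-hydroxynonenal, a product of lipid oxidation. Ptgr1 was measured at 34.1 and 33.6 RPKM in -R, 8.05 and 7.50 RPKM in +R, and 22.6 and 18.3 RPKM in R+LE. No group overlapped another. In mean RPKM it fell to 0.23 of its -R level with RANKL (fitted log2 difference -2.05 ± 0.14 SE, limma adjusted p = 1.8e-08) and rose 2.63-fold under LE (1.33 ± 0.14, adjusted p = 1.62e-05). R+LE stayed below -R, with a log2 difference of -0.72 (95% interval -1.02 to -0.41, adjusted p = 0.00112). Of the 9 tested members, only Ptgr1 was called both with RANKL and under LE.

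The oxidation of aldehydes to acids was represented by Aldh2, the mitochondrial aldehyde dehydrogenase that clears acetaldehyde and lipid aldehydes. Aldh2 was measured at 133 and 121 RPKM in -R, 55.5 and 53.6 RPKM in +R, and 79.2 and 72.0 RPKM in R+LE. As with Ptgr1, the 3 groups were separate and R+LE lay between the others. It fell to 0.428 of its -R level with RANKL (log2 difference -1.21 ± 0.15 SE, limma adjusted p = 6.73e-06). The difference under LE was 0.47 (95% interval 0.15 to 0.78), with an adjusted p of 0.0505 that just missed the threshold. With 1 library left out, this difference ranged from 0.4 to 0.53. R+LE was below -R by a log2 difference of -0.75 ± 0.15 (adjusted p = 0.00095).

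Among the aldo-keto reductases, Akr1a1 (aldehyde reductase, which also reduces glucuronate on the way to vitamin C in mice) was the most abundant of the 10 members in every library. It was measured at 483 and 482 RPKM in -R, 288 and 253 RPKM in +R, and 329 and 277 RPKM in R+LE. The -R libraries were above the other 4, and +R and R+LE overlapped. It fell with RANKL by 0.83 on the log2 scale (SE 0.17, limma adjusted p = 0.00106), and its difference under LE was 0.16 (95% interval -0.21 to 0.53, adjusted p = 0.676). R+LE was below -R by a log2 difference of -0.68 ± 0.17 (adjusted p = 0.00691), which came to adjusted p = 0.0925 without -R replicate 1 and 0.0865 without -R replicate 2. Akr1a1 made up 56.1% and 57.4% of the summed RPKM of the 10 members in -R, 51.7% and 51.0% in +R, then 46.5% and 47.2% in R+LE.

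Akr1b3, the aldose reductase that turns glucose into sorbitol, and Akr1b8, a relative that reduces retinal and lipid aldehydes, lie side by side. Akr1b3 was measured at 90.4 and 91.6 RPKM in -R, 96.4 and 84.8 RPKM in +R, and 115 and 96.2 RPKM in R+LE. R+LE overlapped +R, and the log2 difference was 0.21 (95% interval -0.11 to 0.54, limma adjusted p = 0.47). The value of Akr1b3 is uncertain, since 652 of 1288 stretches of 100 bases in its transcript, or 50.62%, occur unchanged in the annotated gene models Gm12138, Gm6644 or Gm6736, and the other 9 members had 0 such stretches. Akr1b8 was measured at 37.2 and 37.2 RPKM in -R, 35.2 and 27.6 RPKM in +R, and 64.9 and 47.8 RPKM in R+LE. Both R+LE libraries were above the other 4. Akr1b8 rose 1.79-fold in mean RPKM under LE (fitted log2 difference 0.83 ± 0.17 SE, adjusted p = 0.00409), below the 2-fold threshold. It did not pass the test with RANKL (-0.25, 95% interval -0.61 to 0.11, adjusted p = 0.246). Against -R it was higher in R+LE by 0.58 (adjusted p = 0.0158), which came to 0.118 and 0.112 when either -R library was left out and to 0.105 without R+LE replicate 1. Without R+LE replicate 2, Akr1b8 passed the 2-fold threshold under LE (log2 difference 1.04), and without R+LE replicate 1 its difference was 0.61.

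Akr1b10, the next gene of that cluster and no member, was measured at 18.5 and 17.2 RPKM in -R, 25.5 and 23.9 RPKM in +R, and 24.2 and 19.6 RPKM in R+LE, and its log2 difference under LE was -0.18 (SE 0.15, limma adjusted p = 0.544). The ratio of Akr1b10 to Akr1b8 within a library was 0.724 and 0.865 in +R, against 0.373 and 0.409 in R+LE. Akr1b7, at the end of the cluster, was at 0.026 to 0.106 RPKM and was not tested.

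Cbr1 and Cbr3 are monomeric carbonyl reductases that use NADPH to reduce ketones, quinones and, for Cbr1, prostaglandins. Cbr1 was measured at 15.7 and 15.9 RPKM in -R, 13.7 and 11.6 RPKM in +R, and 14.0 and 10.9 RPKM in R+LE. The libraries of +R and R+LE overlapped, with a log2 difference of -0.03 (95% interval -0.35 to 0.3, limma adjusted p = 0.952). That interval held both small rises and small falls. Against -R, the difference of R+LE was -0.34 (adjusted p = 0.0963), which came to 0.021 without R+LE replicate 1. Cbr3 was measured at 24.7 and 19.4 RPKM in -R, 11.6 and 12.6 RPKM in +R, and 28.4 and 20.5 RPKM in R+LE. Its +R libraries were below the other 4, while -R and R+LE overlapped. It fell with RANKL to 0.549 of its -R level (-0.83 ± 0.17 SE, adjusted p = 0.000904) and rose 2.02-fold in mean RPKM under LE (0.97 ± 0.17, adjusted p = 0.00124). On the fitted scale this was just under 2-fold, and Cbr3 was over it without +R replicate 2 or without R+LE replicate 2 (1.2). Without R+LE replicate 1 the difference was 0.74. Against -R the difference was 0.14 (95% interval -0.22 to 0.5, adjusted p = 0.57).

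**Figure D3:**
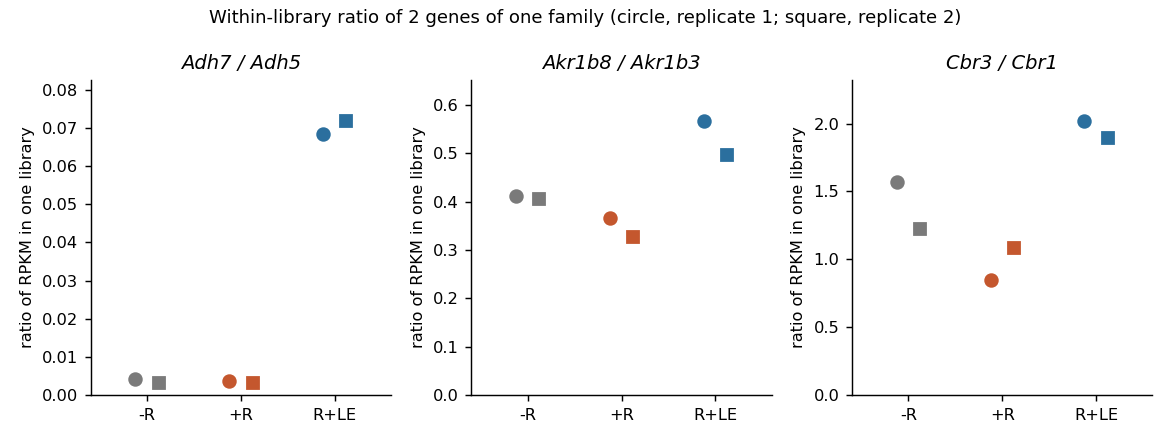
Ratio of RPKM within each library (vertical axis, linear from 0) for Adh7 over Adh5, Akr1b8 over Akr1b3 and Cbr3 over Cbr1, with circles for replicate 1 and squares for replicate 2. Adh7 was chosen by its rise in R+LE, so the first panel is a description; in the other panels the R+LE points are the 2 highest, with Cbr3 at 2.02 and 1.89 times Cbr1 in R+LE and 0.85 and 1.08 times in +R.

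The ratio of 2 neighbouring genes within a library does not depend on its depth. For Akr1b8 over Akr1b3 it was 0.412 and 0.406 in -R, 0.365 and 0.326 in +R, but 0.567 and 0.497 in R+LE. For Cbr3 over Cbr1 it was 1.57 and 1.22 in -R, 0.85 and 1.08 in +R, but 2.02 and 1.89 in R+LE. Both R+LE values were the highest of the 6 in each of these 2 pairs, which is given as a description with no test. The pair of Adh7 and Adh5 adds nothing to this, because Adh7 was chosen by its rise in R+LE.

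The hydrolysis of epoxides was represented by Ephx1, the microsomal epoxide hydrolase, the only one of the 9 tested members that rose with RANKL by adjusted p. Ephx1 was measured at 2.07 and 1.76 RPKM in -R, 4.58 and 5.58 RPKM in +R, and 10.2 and 8.48 RPKM in R+LE. The 3 groups were separate, in rising order. In mean RPKM it rose 2.65-fold with RANKL (fitted log2 difference 1.21 ± 0.16 SE, limma adjusted p = 1.5e-05) and a further 1.84-fold under LE (0.82 ± 0.16, adjusted p = 0.00258). Mean RPKM in R+LE was 4.88 times that in -R, and the fitted fold was 4.07 (log2 difference 2.03 ± 0.16, adjusted p = 1.01e-07).

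Set against -R, the R+LE cells had 1 of the 9 members called higher (Ephx1), against 3.92% of all genes, and 0 called lower, against 6.36%. By adjusted p alone, 2 were higher (Ephx1 and Akr1b8), against 15.3%, and 3 were lower (Aldh2, Akr1a1 and Ptgr1), against 19.0%. This comparison shares its libraries with the other 2 and is no independent view of them. The summed level of the 10 members was 860 and 839 RPKM in -R, 558 and 497 RPKM in +R, and 707 and 585 RPKM in R+LE, so that most of the fall with RANKL was in the abundant Akr1a1 and Aldh2. Akr1a1 headed the order of levels and Adh7 closed it in each condition. In -R the next were Aldh2 and Akr1b3, in +R and R+LE Akr1b3 and Aldh2, and all of these were separate. Neighbours in the order that overlapped were Adh5 and Akr1b8 in -R, Cbr1 and Cbr3 in +R, and Cbr3 and Ptgr1 in R+LE.

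The wider families were followed through 70 further enzymes, of which 67 were in the table and 43 passed the filter. Under LE, 3 of the 43 were called higher, against 1.46% of all genes, and 4 lower, against 1.78%, and their median log2 difference was -0.18. With RANKL, 4 were called higher, against 6.58%, and 5 lower, against 8.92%. For R+LE against -R, 4 were called higher, against 3.92%, and 3 lower, against 6.36%. Nqo1, the quinone reductase, was the largest rise under LE (log2 difference 3.73 ± 0.18 SE, limma adjusted p = 5.64e-09). Esd, the hydrolase that takes the product of Adh5 on to formate, rose by 1.28 (adjusted p = 0.00018), from 171 and 166 RPKM in +R to 466 and 358 RPKM in R+LE, near its -R level of 400 and 377 RPKM. Dhrs9, a retinol dehydrogenase of the short-chain family, rose by 1.06 (adjusted p = 0.0011), from 7.28 and 4.64 RPKM to 14.0 and 11.5 RPKM.

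The 4 enzymes called lower under LE were an aldo-keto reductase, an epoxide hydrolase, a short-chain dehydrogenase and an aldehyde dehydrogenase. Akr1c18, a hydroxysteroid dehydrogenase that inactivates progesterone, was at 10.1 and 5.78 RPKM in +R and 1.47 and 1.13 RPKM in R+LE, a log2 difference of -2.18 (limma adjusted p = 1.25e-05), after 0.147 and 0.099 RPKM in -R. Ephx2, the soluble epoxide hydrolase that acts on fatty acid epoxides, was at 2.60 and 2.11 RPKM in +R and 0.481 and 0.257 RPKM in R+LE (-1.72, adjusted p = 0.000113), the opposite direction to Ephx1. Cbr2, a carbonyl reductase of the short-chain family, was at 17.8 and 19.9 RPKM in -R, 3.22 and 5.35 RPKM in +R, and 1.19 and 1.88 RPKM in R+LE (-1.22, adjusted p = 0.000977). The fourth, Aldh1l1, a folate-linked dehydrogenase, fell by 1.20 (adjusted p = 0.000409).

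**Figure D4:**
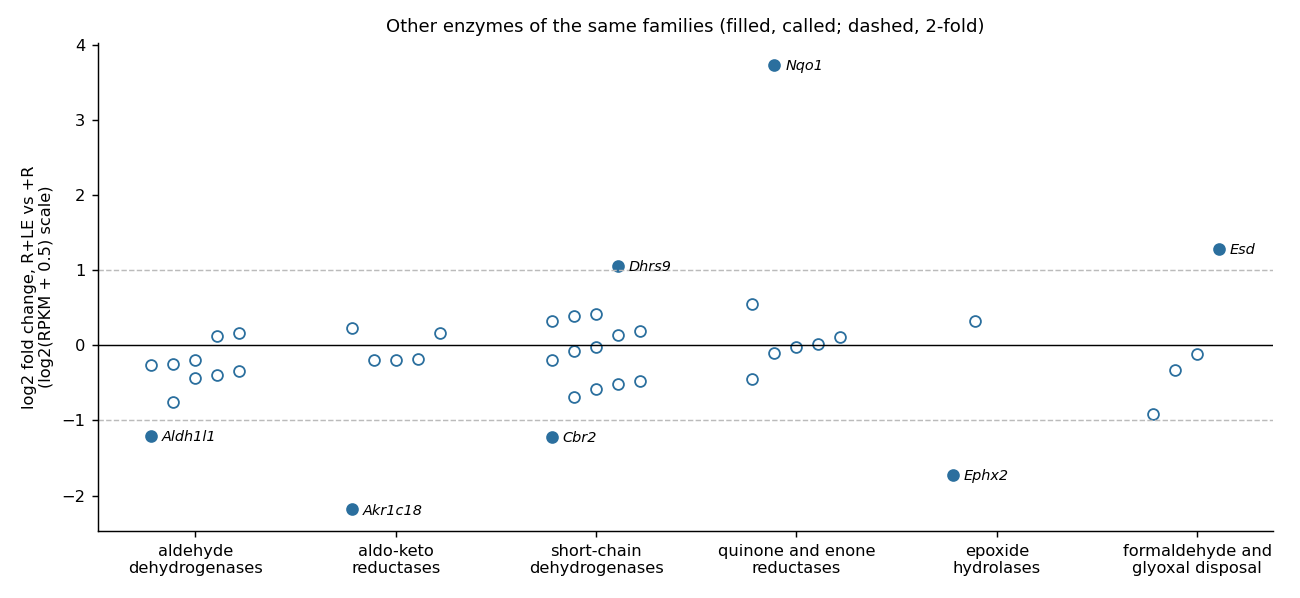
Fitted log2 fold change of R+LE against +R (vertical axis, log2(RPKM + 0.5) scale) for the 43 tested enzymes outside the set, one point per gene, placed by family along the horizontal axis, with filled and named points for called genes and dashed lines at a 2-fold change. Nqo1 stands alone at 3.73, and the called genes lie on both sides of 0, from Akr1c18 at -2.18.

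By family, the 10 tested aldehyde dehydrogenases outside the set had 0 called higher and 1 lower under LE, with a median log2 difference of -0.3. The 6 aldo-keto reductases had 0 and 1 (median -0.18), the 14 short-chain dehydrogenases 1 and 1 (-0.04), the 7 quinone and enone reductases 1 and 0 (0.02), the 2 epoxide hydrolases 0 and 1 (-0.7), and the 4 enzymes of formaldehyde and glyoxal disposal 1 and 0 (-0.23). Over all genes tested, 1.46% were called higher and 1.78% lower, and the median was -0.05. With lists this small, nothing about a family is read from these counts. Vat1, a relative of Ptgr1 among the enone reductases, was chosen after its values were seen. Its log2 difference was -1.94 with RANKL (limma adjusted p = 1.11e-07) and its difference under LE was 0.55 (adjusted p = 0.0341), the same order of conditions as Ptgr1. Ptgr2 of the same family went the other way, with 0.44 (adjusted p = 0.0235) and -0.45 (adjusted p = 0.0584). Zadh2 had 0.45 (adjusted p = 0.0173) and -0.1 (adjusted p = 0.764). Of the 7 tested in this family, 4 were above 0 and 3 below in each of these comparisons.

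Of the genes that control Nrf2, 0 of 5 passed the limma test by adjusted p under LE, where 5.19% of all genes passed as higher and 6.86% as lower, so that little can be read from this count. The fit gave log2 differences of 0.34 for Nfe2l2 (which encodes Nrf2, adjusted p = 0.2), 0.34 for Keap1 (its inhibitor, adjusted p = 0.129) and 0.43 for Bach1 (a repressor at the same sites, adjusted p = 0.0535). For Mafg and Mafk, their partners, the differences were 0.41 (adjusted p = 0.0593) and 0.2 (adjusted p = 0.452). Nrf2 is regulated mainly at the level of the protein, which was not measured here. With RANKL, 3 of the 5 fell by adjusted p, against 21.5% of all genes: Mafg, with a log2 difference of -0.93 (adjusted p = 3.72e-05), Mafk with -0.49 (0.01) and Nfe2l2 with -0.40 (0.0452).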

How the data were processed

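Total RNA from mouse BMMs was sequenced in 6 libraries, which the sample labels give as 2 replicates of each condition. The authors aligned reads to mm10 with TopHat by the paper's methods, whereas the submitters' processing notes name HISAT2, counted them over exons with HOMER, and deposited RPKM per gene with 1 transcript each. Other unit columns in the deposited table give transcript length. Versions are not given in the sources used here. RPKM from HOMER depends on 1 chosen transcript and on reads shared with similar genes. All columns of values were used (0 belong to other samples), and 26 symbols shown as dates were restored.

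Depth came from whole reads recovered from the RPKM steps: 100% of the low values checked were whole within 0.1 reads. The 2 replicates of each condition differed by more than sampling noise (chi-square per gene 12.5 to 28.0). A value of 3 reads on 1 kb was 0.0861 to 0.102 RPKM. The Poisson intervals of Adh7 cover counting error only, while the limma intervals rest on the spread between libraries.

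limma 3.58.1 (R 4.3.3) was fitted to log2(RPKM + 0.5) of 11595 genes whose mean reached 0.5 RPKM, all 6 libraries and 3 groups in one fit with a variance trend, and p-values were adjusted by Benjamini-Hochberg over all genes tested. This scale understates the fold of weakly expressed genes. Folds given for single genes are ratios of mean RPKM unless called fitted, whereas log2 differences come from the fit. Python 3.11.15, numpy 2.4.6, pandas 2.3.3, scipy 1.17.1 and matplotlib 3.10.9 were used for the rest.

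The members and gene lists were chosen with earlier results of these data known. Genes named are the 10 members, the enzymes outside the set that were called in R+LE against +R (at most 3 each way), cluster neighbours, the 5 genes most like Adh7, Nfe2l2, Keap1, Bach1 and markers. Aldh1l1, Vat1, Ptgr2, Zadh2, Mafg and Mafk were added after their values were seen. Alternatives were other pseudocounts, filters, scalings and fits, voom on recovered reads, the replicate number as a block, and each library left out. Promoters came from RefSeq and gene models from GENCODE. The comparison of protein sequences that had been planned was not analysed here.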

Additional observations from a re-analysis of the deposited data

How the results depend on the processing

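For the log2 differences of the 9 single members, 459 alternative values were computed, of which 428 kept their direction and their side of the adjusted p threshold. Crossing the 2-fold threshold was not part of this count. The number of the 9 members called in R+LE against +R was 1, and became 2 (Cbr3 and Ptgr1) with each library centred on its median or with quantile normalization. Leaving out 1 library gave 1 to 3, with Cbr3 added without +R replicate 2, and Cbr3 and Akr1b8 added without R+LE replicate 2. The 7 other enzymes called in that comparison became 4 without a filter on low values. Values near 0 changed sign. Akr1b3 with RANKL came to 0.05 with Rn45s left out of the depth, and ranged from -0.1 to 0.08 with 1 library left out. Cbr1 under LE came to 0.02 with median centring and with quantile normalization, and ranged from -0.2 to 0.15. In R+LE against -R, Adh5 came to 0.06 with quantile normalization and 0.01 without Rn45s, ranging from -0.24 to 0.12, and Cbr3 ranged from -0.09 to 0.37. The causes were not tested.

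Under LE, Aldh2 had an adjusted p below the threshold in 7 alternatives, from 0.00384 with quantile normalization to 0.0469 with a minimum mean of 1 RPKM. In the other alternatives Aldh2 stayed above the threshold, such as 0.0803 without a filter and 0.109 with only the groups compared in the fit. Without a filter, Akr1b8 (0.089), Cbr3 (0.0668) and Ephx1 (0.0709) missed it, and Ptgr1 was then the only one of the 9 to pass. Akr1b3 passed with quantile normalization (0.028). Replicate numbers could not be shown to pair the libraries, since same-numbered deviations correlated at -0.046, 0.249 and 0.107 and there were only 2 numbers. With the replicate block, the number of members called under LE was 1 and Aldh2 passed at an adjusted p of 0.0228, and no other member changed its call. At 8 to 10 reads, the low level of Adh7 without LE was set within wide counting limits.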
